A study of Mus musculus with 12 samples.

Results

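The genotype by hemisphere interaction asked, gene by gene, whether the change of the brain transcriptome after a stroke differed between mice with induced dickkopf-1 (DKK1) and wild-type mice. It was computed as the ipsilateral minus contralateral difference of DKK1 mice minus the same difference of wild-type mice, on the log2 scale, so a positive value means a more positive lesion effect in DKK1 mice. All 12 of the 12 libraries of the series entered it, in 4 groups of 3. Stroke was induced by middle cerebral artery occlusion (MCAo). At day 28 brain tissue was taken on the lesioned side (ipsilateral) and on the intact side (contralateral). DKK1 mice carried 3 alleles, namely rtTA with EGFP at Gt(ROSA)26Sor, tetO-Dkk1 at Hprt, and a TCF/Lef1-lacZ reporter transgene. Wild-type mice were C57BL6/J. All 4 groups share the stroke and the drug, doxycycline at 200 mg/kg with induction from day 3 after MCAo. No group carried the alleles without doxycycline, and effects of DKK1 and of the other alleles or linked DNA cannot be told apart. Age is not in the labels, nor is the animal behind each library. The p-values therefore measure only the spread between libraries, which may be technical.

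DKK1 is a secreted protein that binds the Wnt co-receptors LRP5 and LRP6 and blocks canonical signalling through beta-catenin and the TCF/LEF factors. In the brain, canonical Wnt signalling is known for maintaining the barrier properties of endothelium and for adult neurogenesis. In the weeks after a stroke, microglia and incoming macrophages clear dead tissue, complement proteins tag it, reactive astrocytes and fibroblasts form a scar, and lymphocytes enter the lesion.

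The libraries held 21209920 to 26911840 counts each, with 19557 to 20272 genes detected. Summed levels of 27 neuron and synapse genes (9960 to 15300 CPM, counts scaled to library size), 14 astrocyte genes (4400 to 4900 CPM) and 16 myelin genes (3670 to 5340 CPM) were high in every library. Wild-type ipsilateral 1 and wild-type contralateral 1 stood apart from the other libraries of their groups, and results are also given without this pair. Its ipsilateral library held the highest summed complement, microglial and scar levels of the wild type. Its contralateral library held transcripts typical of liver, a summed 374 CPM over 22 genes, against 124 in wild-type contralateral 2 and 15.9 to 30.0 in the other 10. Markers of deep brain regions also moved: the summed level of 22 thalamic and hypothalamic genes was 270 to 397 CPM in wild-type contralateral, 426 to 693 in wild-type ipsilateral, 370 to 464 in DKK1 contralateral and 477 to 681 CPM in DKK1 ipsilateral libraries. Which regions each sample held is not in the labels, and the part of region content in the results below was not tested.

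Dkk1 itself was at 0 counts in each of the 6 wild-type libraries. In DKK1 mice its counts were 13, 5 and 4 on the intact and 32, 7 and 44 on the lesioned side. With a wild type at 0 in both hemispheres no wild-type lesion effect exists for Dkk1, and no interaction is given. Hprt, the purine salvage enzyme at whose locus the transgene sits, was far lower in DKK1 mice on both sides, at 17.2, 17.5 and 15.7 CPM contralateral and 13.6, 12.1 and 12.7 ipsilateral, against 67.5 to 79.7 in the wild type. Its lesion effect did not differ between genotypes past the threshold (−0.24 ± 0.09, standard error (SE), edgeR adjusted p = 0.464).

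Most of the lesion response had the same direction in both genotypes and was larger in DKK1 mice. Of 17612 genes tested, 6546 (37.2%) changed with the lesion in wild type and 8819 (50.1%) in DKK1 mice, at an adjusted p under 0.05 by edgeR's quasi-likelihood test. In both genotypes 5815 of these passed, and 4 of them had opposite signs. The lesion effects of the genotypes, which share no libraries, lay along a line with a slope of 1.31 of DKK1 on wild type over all genes tested. Among the 5175 genes called in a fit of the wild-type libraries alone, 75.5% had the same sign and a larger size in DKK1 mice, and the slope was 1.26. Slopes are descriptions, since genes are not replicates. The root mean square of the ipsilateral minus contralateral differences (log2 CPM) over all genes was 0.93, 0.85 and 0.82 in wild-type pairs 1, 2 and 3, and 1.01, 1.09 and 1.16 in the DKK1 pairs, so the pairs did not overlap. The slope was 1.09 without wild-type contralateral 1, 1.46 without wild-type ipsilateral 1, and 1.24 without both.

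**Figure D1:**
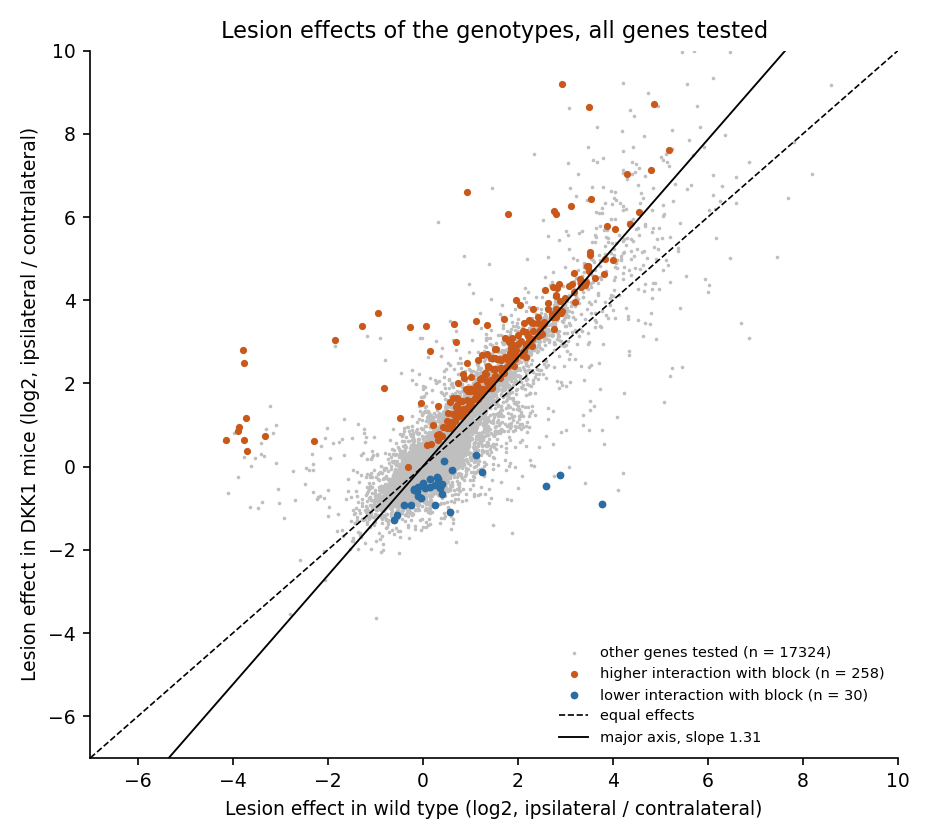
Each point is a gene, with its lesion effect in wild type on the x axis and in DKK1 mice on the y axis (log2 ipsilateral over contralateral, edgeR, 3 libraries per group). The solid major axis, with a slope of 1.31, is steeper than the dashed line of equal effects. The genes with a higher interaction in the fit with the replicate block lie above that line and the 30 lower ones below it, and 3 genes lie outside the axes.

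How many single genes could be called depended on whether same-numbered libraries of a genotype were treated as pairs. Without pairing, the interaction passed for 1 of 17612 genes (0.00568%), H2-T-ps of the class I region, and 1689 genes (9.59%) had an unadjusted p under 0.05, of which 1230 were higher (6.98%) and 459 lower (2.61%). With a block for each genotype and number (the replicate block), 288 genes (1.64%) passed, of which 30 were lower (0.17% of all genes) and the rest higher (1.46%). Deviations of same-numbered libraries correlated at 0.297 to 0.487 in the wild type but only at 0.105 to 0.276 in DKK1 mice. Libraries of different numbers or genotypes reached 0.172 and 0.257, so the pairing is an assumption. The block lowered the median SE of the interaction from 0.158 to 0.121. Of the higher genes, 232 had an unadjusted p under 0.05 without the block, as did 28 of the 30 lower genes. The 95% interval of the interaction lay within 1 log2 unit of 0 for 12886 genes (73.2%) without and 13547 (76.9%) with the block.

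The blocked count rested on single pairs. Without wild-type pair 1, 1455 genes passed, and without DKK1 pair 2, 5 genes did. The other pairs left out gave 119 (wild-type 2), 136 (wild-type 3), 634 (DKK1 1) and 30 genes (DKK1 3). Among the 5 genes that passed whichever pair was left out were Cd84 and H2-T23, higher, and Ntng1, lower. A further 24 genes lost the call in 1 fit only, so 29 passed in at least 5 of the 6 fits. The same model gave 502 genes with DESeq2, and with limma-voom a count within 1.5 times of 288. Other treatments of the same pairs ended nearly all calls. With the block as a random effect (limma-voom, consensus correlation 0.313) 2 genes passed, H2-T-ps and H2-Bl, and 2427 had an unadjusted p under 0.05. With limma on the pair differences 0 passed, and 2261 had an unadjusted p under 0.05. No member of the gene lists described below passed in either of these. With no block, limma-voom gave 0 genes and DESeq2 65.

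**Figure D2:**
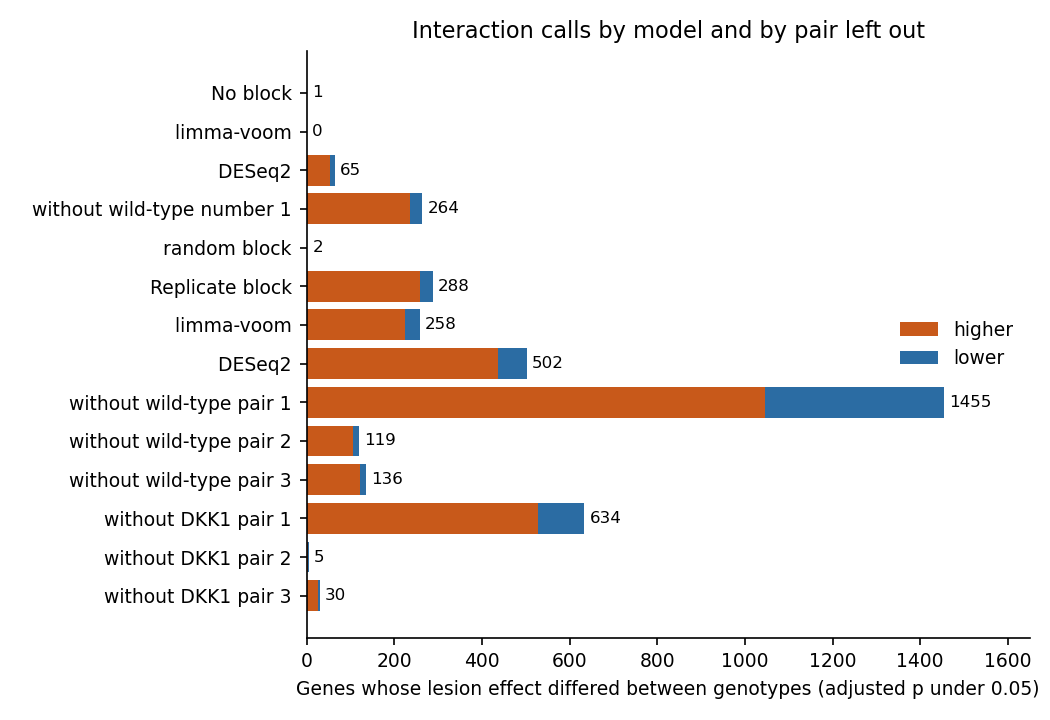
Bars give the number of genes whose lesion effect differed between genotypes at an adjusted p under 0.05, higher (orange) and lower (blue) in DKK1 mice. The first 5 bars are fits without a fixed block (edgeR, limma-voom, DESeq2, edgeR without wild-type number 1, and a random block), and the others have the replicate block. The count runs from 5 without DKK1 pair 2 to 1455 without wild-type pair 1.

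Higher interactions were mostly a larger rise. Of these genes, 240 had a positive fitted lesion effect in both genotypes, 17 were down in wild type and up in DKK1 mice, and 1 was down in both. For 226 the lesion effect passed in both genotypes with the same sign. The genotype difference was larger on the lesioned than on the intact side for 188, and the median interaction was 0.91. Lower interactions had another form. Of the 30 genes, 17 were up in wild type and down in DKK1 mice, 11 were down in both and 2 up in both, with a median of −0.66.

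H2-T-ps, annotated at chromosome 17, 36109030 to 36111676 (mm10, the build of the count table), lies in the T region of the major histocompatibility complex (MHC), among genes of non-classical class I molecules. Its symbol marks it as a pseudogene, while RefSeq lists it as protein-coding, and whether it yields a protein was not measured. It held 1.91, 1.45 and 1.61 CPM in wild-type contralateral and 1.65, 1.74 and 2.17 CPM in wild-type ipsilateral libraries. In DKK1 mice it held 1.03, 1.11 and 0.916 CPM contralateral and 5.87, 7.67 and 7.57 CPM ipsilateral. The 3 DKK1 ipsilateral libraries were the highest of the 12 and the 3 DKK1 contralateral ones the lowest, while the wild-type hemispheres overlapped. Its interaction was 2.63 ± 0.28 (edgeR adjusted p = 0.0148), and 2.63 ± 0.30 with the block (edgeR adjusted p = 0.00570). The call without the block was lost when any 1 of 6 libraries was left out (wild-type ipsilateral 2, DKK1 ipsilateral 2 or 3, or any DKK1 contralateral library), at edgeR adjusted p values of 0.0677 to 0.122, with limma-voom (adjusted p = 0.0616), and with limma on the pair differences (2.60, adjusted p = 0.169).

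Class I genes near it were also called with the block. H2-T23, which encodes the Qa-1 molecule read by inhibitory receptors of NK cells, held 32.9, 26.6 and 25.9 CPM contralateral and 83.2, 60.4 and 59.4 CPM ipsilateral in the wild type. In DKK1 mice it held 14.2, 15.4 and 13.8 CPM contralateral and 72.8, 108 and 98.2 CPM ipsilateral. Its contralateral groups did not overlap, with DKK1 mice lower, and the ipsilateral groups did, so the difference of lesion effects (1.43 ± 0.12 with the block, edgeR adjusted p = 0.00178) came in part from the intact side. H2-T9 (1.03 ± 0.10) and H2-Bl (3.65 ± 0.43) also passed with the block, both with lower levels in DKK1 than in wild-type mice on the intact side. The class II chaperone gene H2-DMb1 had an interaction of 1.72 ± 0.27 (edgeR adjusted p = 0.0186 with the block). C4a, a complement C4 gene in the same complex, held 4.39 to 8.55 CPM in wild-type contralateral, 4.87 to 5.14 in wild-type ipsilateral, 9.26 to 9.90 in DKK1 contralateral and 19.9 to 22.9 CPM in DKK1 ipsilateral libraries (1.61 ± 0.22 with the block). Chromosome 17 from position 30000000 to 40000000, which holds the complex, had 14 of 224 tested genes called with the block (6.25%), against 1.64% of all genes. Most of the 14 are H2 genes, and near-identical copies among them cannot be counted as separate findings. How reads of near-identical class I copies were counted is not in the labels, so values of single H2 genes are uncertain, as are those of C4a.

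The promoter sequences of 4 genes are printed for calls described here. H2-T-ps passed without the block, H2-T23 and Ntng1 passed whichever pair was left out, and C1qb stands for the complement genes below. They run from 250 bases before to 50 after the start in RefSeq annotation of GRCm38.p6, 5′ to 3′ on the gene's strand. The 4 windows are chr17:36111627-36111926 (minus strand), chr17:36032652-36032951 (minus), chr4:136886151-136886450 (minus) and chr3:110143423-110143722 (minus), in the order printed. Capitals mark a match to the interferon-stimulated response element.
H2-T-ps: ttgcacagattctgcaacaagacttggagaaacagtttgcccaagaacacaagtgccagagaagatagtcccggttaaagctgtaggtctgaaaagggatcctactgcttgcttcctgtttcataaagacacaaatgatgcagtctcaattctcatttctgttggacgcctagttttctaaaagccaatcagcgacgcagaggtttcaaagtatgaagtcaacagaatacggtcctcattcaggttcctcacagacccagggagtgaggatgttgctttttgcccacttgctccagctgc
H2-T23: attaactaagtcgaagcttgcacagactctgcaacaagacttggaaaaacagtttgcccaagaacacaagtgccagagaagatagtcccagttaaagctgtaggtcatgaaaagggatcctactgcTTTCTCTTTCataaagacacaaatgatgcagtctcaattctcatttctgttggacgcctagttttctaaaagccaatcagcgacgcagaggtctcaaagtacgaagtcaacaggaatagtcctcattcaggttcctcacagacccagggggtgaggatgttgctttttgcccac
C1qb: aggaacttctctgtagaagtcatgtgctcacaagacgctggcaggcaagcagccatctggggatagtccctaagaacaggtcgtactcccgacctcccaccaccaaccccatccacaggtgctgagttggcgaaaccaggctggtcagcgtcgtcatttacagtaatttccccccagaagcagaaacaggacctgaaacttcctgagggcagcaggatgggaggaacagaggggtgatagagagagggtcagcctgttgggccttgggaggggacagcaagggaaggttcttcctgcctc
Ntng1: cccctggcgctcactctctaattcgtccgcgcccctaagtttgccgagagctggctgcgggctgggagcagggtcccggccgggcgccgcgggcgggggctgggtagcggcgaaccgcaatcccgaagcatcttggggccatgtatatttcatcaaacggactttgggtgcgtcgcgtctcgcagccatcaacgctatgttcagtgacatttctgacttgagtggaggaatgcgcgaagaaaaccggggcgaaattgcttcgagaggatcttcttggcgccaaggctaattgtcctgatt
The H2-T-ps and H2-T23 windows were identical at 273 of 281 aligned bases (97.2%), which shows how alike these copies are. The H2-T23 window holds 1 match to the interferon-stimulated response element (GAAA, any 2 bases, GAAA) read on either strand, and the H2-T-ps window holds none. Promoters were matched for 13004 of the genes tested, 197 of the higher and 23 of the 30 lower genes. That element occurred in 5.08% of the higher promoters and 3.08% of all. GAGGAAGT, a site of the myeloid factor PU.1, occurred in 8.12% and 2.98%. ATCAAAG, the TCF/LEF site, occurred in 2.03% and 2.58%, and TTCNNNGAA, the STAT site, in 7.61% and 6.84%. None of the 23 lower promoters held any of the 4 motifs. Both strands were searched, the motifs can overlap, and a match is a description of letters, not of a bound site.

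Complement genes held 9 of the calls, the most of any list chosen by function. All 16 rose with the lesion in both genotypes, and 9 of the 16 (56.2%) had a higher interaction with the block, against 1.46% of all genes. The median interaction of the list was 0.84, against 0.02 over all genes tested. The list's median lesion effect was 2.31 in wild type and 3.16 in DKK1 mice, against 0.01 in each genotype over all genes. Lesion effects were larger in DKK1 mice in general (slope 1.31), and whether the list exceeded this was not tested. The list's mean lesion effect was 2.45, 2.32 and 2.45 in the wild-type pairs and 3.21, 3.36 and 3.44 in the DKK1 pairs. Without the block 0 of the 16 passed by edgeR, 0 by limma-voom and 1 by DESeq2, and 10 had an unadjusted p under 0.05 (9.59% of all genes). Leaving out 1 pair with the block gave 11 calls (wild-type 1), 6 (wild-type 2), 6 (wild-type 3), 9 (DKK1 1), 1 (DKK1 2) and 3 (DKK1 3), and 0 passed by limma with the block as a random effect or on pair differences. In bulk tissue more cells of a type and more RNA per cell cannot be told apart.

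Of the genes that start the classical pathway, C1qa and C1qb, chains of the C1q recognition protein, had interactions of 0.78 ± 0.09 and 0.77 ± 0.09 with the block. C1qb held 53.3, 40.6 and 44.8 CPM in wild-type contralateral, 252.2, 171.8 and 202.2 in wild-type ipsilateral, 39.1, 38.0 and 39.7 in DKK1 contralateral and 259.5, 307.6 and 332.2 CPM in DKK1 ipsilateral libraries. Wild-type ipsilateral 1 lay just under the lowest DKK1 ipsilateral library, DKK1 ipsilateral 1. The C1 proteases C1ra (0.99 ± 0.20) and C1s1 (1.54 ± 0.26) and C2 (1.17 ± 0.24), the protease of the C3 convertase, also passed with the block. So did Serping1 (1.48 ± 0.26), the inhibitor of the C1 proteases, the C3a receptor C3ar1 (0.81 ± 0.14) and Itgb2 (0.96 ± 0.13), the beta chain of complement receptor 3. Starter, inhibitor and receptor genes were thus all among the 9.

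**Figure D3:**
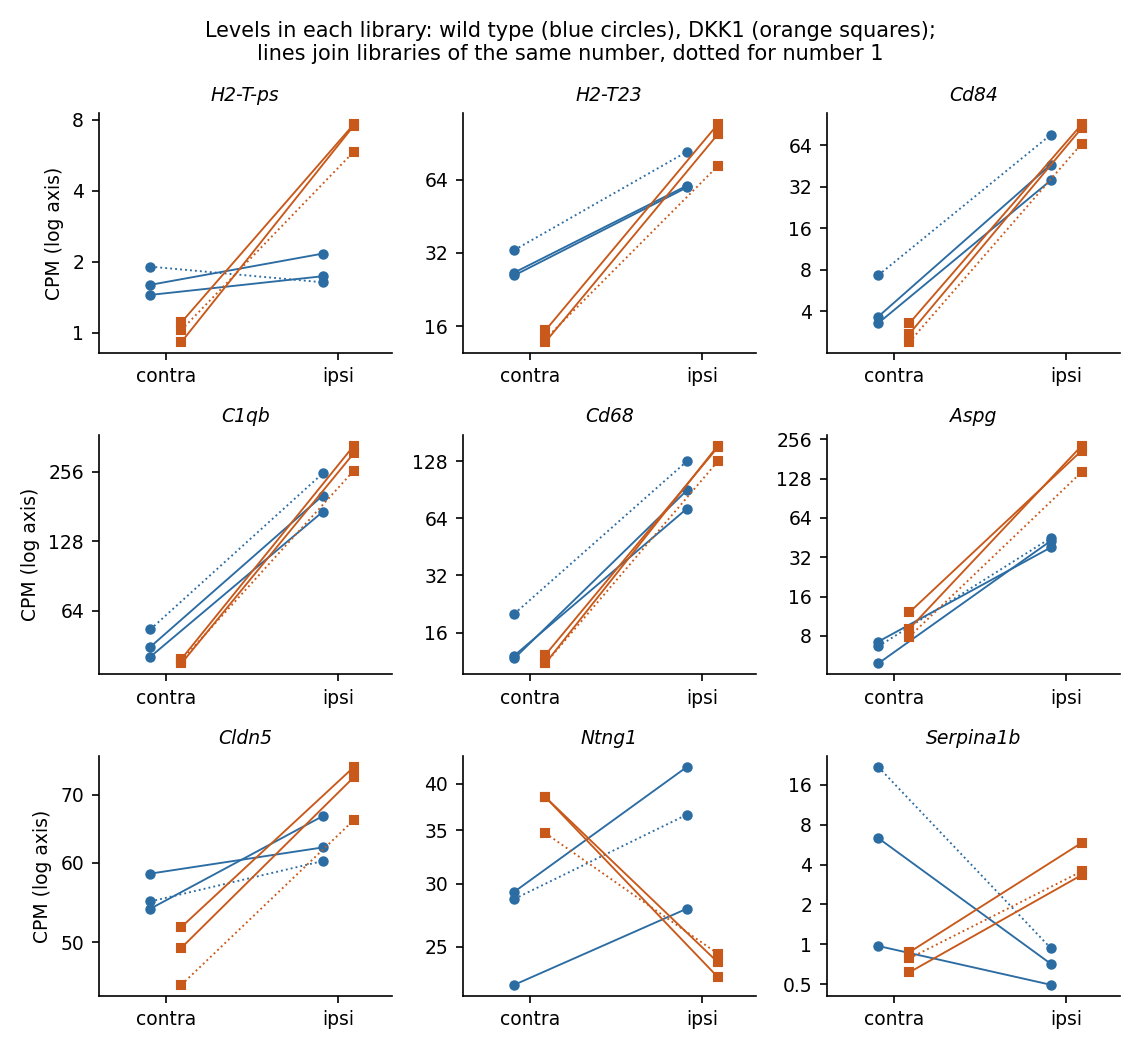
Levels in CPM (log axes) of 9 genes in each library, with lines that join libraries of the same genotype and number (dotted for number 1). H2-T-ps, H2-T23, Cd84, C1qb, Cd68, Aspg and Cldn5 climb more steeply in DKK1 mice. Ntng1 goes up in every wild-type pair and down in every DKK1 pair, and Serpina1b is highest in wild-type contralateral 1.

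Microglia are the resident macrophages of the brain, and near damage they take on a disease-associated state with lysosomal and lipid genes. All 23 genes of this state rose with the lesion in both genotypes, and 22 had a positive interaction, with a median of 0.65. Without wild-type contralateral 1 the median was 0.41, with 19 positive. With the block 4 passed (17.4%, against 1.64% of all genes), and 12 had an unadjusted p under 0.05 without it (9.59% of all genes). Calls with the block were 11 without wild-type pair 1, 2 without wild-type pair 2 or 3, 1 without DKK1 pair 3 and 0 without DKK1 pair 2. Calls over all genes moved too, from 1455 without wild-type pair 1 to 5 without DKK1 pair 2. Cd68, a lysosomal membrane protein of phagocytes, held 20.1, 12.1 and 11.7 CPM in wild-type contralateral and 128, 72.0 and 89.9 CPM in wild-type ipsilateral libraries. The DKK1 libraries held 11.02, 10.99 and 12.16 CPM contralateral and 128, 155 and 152 CPM ipsilateral. Wild-type number 1 was the highest wild-type library on both sides and reached the DKK1 level on the lesioned side. Within pairs the differences did not overlap, at 2.67, 2.57 and 2.93 in the wild-type pairs against 3.52, 3.81 and 3.64 in the DKK1 pairs. That held for every gene called with the block, so it adds no support to a call, and for 20.4% of all genes tested. The interaction was 0.94 ± 0.11 with the block (edgeR adjusted p = 0.00600) and 0.95 ± 0.33 without it (edgeR adjusted p = 0.460). The others called were the lysosomal proteases Ctsd (0.66 ± 0.10) and Ctsz (0.66 ± 0.10) and Apoe (0.54 ± 0.11), the main lipid carrier of the brain.

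Of 13 genes of homeostatic microglia, 12 had a positive interaction (median 0.39) and 3 passed with the block (23.1%, against 1.64% of all genes). Among the 3 were Tmem119, a microglial surface protein (0.52 ± 0.11), and Csf1r, the receptor on which microglia depend for survival (0.48 ± 0.09). No gene of the list passed without wild-type pair 2 or 3 or DKK1 pair 2 or 3. The median was 0.10 with 8 positive without wild-type contralateral 1, 0.21 with wild-type ipsilateral 2 left out and 0.62 with wild-type ipsilateral 1 left out. Of 17 border macrophage and monocyte genes 1 passed (5.88%), the scavenger receptor gene Stab1 (0.47 ± 0.09). Its call was lost without wild-type pair 2 or 3 or DKK1 pair 2 or 3. The list median of 0.69 was 0.44 without wild-type contralateral 1, 0.38 without DKK1 ipsilateral 2 and 1.11 without wild-type ipsilateral 1. Cd84, a receptor of the SLAM family on leukocytes, held 2.40 to 3.28 CPM in DKK1 contralateral and 65.8 to 90.9 CPM in DKK1 ipsilateral libraries, against 3.29 to 7.32 and 35.6 to 76.2 CPM in the wild type. Its interaction was 1.37 ± 0.12 with the block (edgeR adjusted p = 0.00178) and 1.38 ± 0.49 without (edgeR adjusted p = 0.460).

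Lymphocyte lists had large medians. With the block the B and plasma cell list held 1 call (8.33%, against 1.64% of all genes) and the T and NK cell list 0. B and plasma cell genes had the largest median of the lists on immune cells, 1.55 over 12 genes (1.13 over the 9 with more than 3 counts in every group). All 12 rose with the lesion in both genotypes, and 8 had an unadjusted p under 0.05 without the block (9.59% of all genes). The inhibitory B cell receptor gene Cd22 passed with the block by edgeR (2.37 ± 0.44, adjusted p = 0.0365). With the same block limma-voom and DESeq2 each called 0 of the 12, and the edgeR call was lost without wild-type pair 2 or DKK1 pair 2 or 3. It held 21.0 to 43.2 CPM in wild-type ipsilateral and 51.1 to 68.5 CPM in DKK1 ipsilateral libraries, and at most 1.50 CPM on the intact side. Pax5, the factor that fixes B cell identity, held 6.02, 4.72 and 6.96 CPM in wild-type ipsilateral and 13.39, 13.04 and 23.78 CPM in DKK1 ipsilateral libraries. The ipsilateral groups did not overlap, but the interaction of Pax5 did not pass with the block (2.60 ± 0.77, edgeR adjusted p = 0.129). Of 29 T and NK cell genes 0 passed by edgeR with or without the block, and 0 by limma-voom or DESeq2 without the block. At an unadjusted p under 0.05 without the block there were 3, near the share of all genes (9.59%). The median of the T and NK cell genes was 0.54, and 0.47 without the 5 members with 3 counts or fewer in a group. It became 0.42 with 20 of 30 positive without wild-type contralateral 1. Without wild-type ipsilateral 1 it was 1.15, and without wild-type contralateral 2 it was 0.86. Of this list the chemokine receptor Cxcr6 held 0.761 to 1.79 CPM in wild-type ipsilateral and 3.58 to 4.58 CPM in DKK1 ipsilateral libraries (2.31 ± 0.77 without the block, edgeR adjusted p = 0.437).

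Interferon response genes were called in small number. All 27 rose with the lesion in both genotypes and all 27 had a positive interaction (median 0.53), against 53.4% positive over all genes. Among the 5175 genes called in the wild-type libraries alone, 75.5% had the same sign and a larger size in DKK1 mice. Whether the list exceeded that general difference was not tested. Without wild-type contralateral 1 the list median was 0.20 with 24 positive, and without wild-type ipsilateral 1 it was 0.81. The mean lesion effect was 2.02, 2.08 and 2.18 in the wild-type pairs against 2.44, 2.57 and 2.84 in the DKK1 pairs. With the block 2 passed, Ifitm3, a membrane protein that blocks entry of viruses (0.72 ± 0.09), and Irf8, a transcription factor of microglia and other myeloid cells (0.85 ± 0.13). Neither passed without DKK1 pair 2 or DKK1 pair 3. Of the 20 genes of MHC and antigen presentation 2 passed, H2-T23 and H2-DMb1 as above, with 19 positive and a median of 0.48. That median was 0.07 with 11 positive without wild-type contralateral 1, 0.75 without wild-type ipsilateral 1, and 0.34 with 14 positive in the blocked fit without wild-type pair 1. Of 21 cytokines and chemokines 0 passed by edgeR, 0 by limma-voom and 1 by DESeq2 with the block. In this list 13 were positive (9 without wild-type contralateral 1), and 2 had an unadjusted p under 0.05 without the block (9.59% of all genes).

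**Figure D4:**
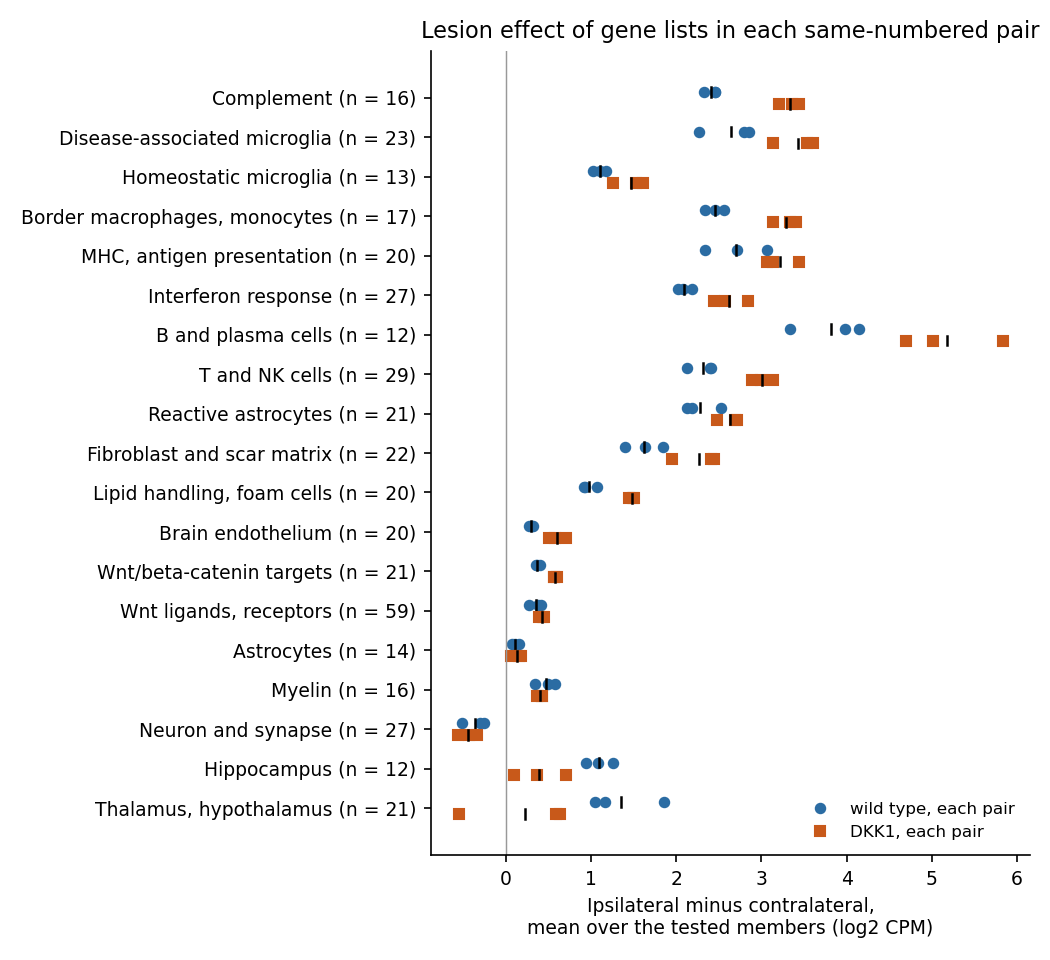
Mean lesion effect of 19 gene lists (log2 CPM, ipsilateral minus contralateral) in each same-numbered pair, with wild type as blue circles, DKK1 mice as orange squares and the mean of 3 pairs as a black bar. Complement, microglial and lymphocyte lists lie further right in DKK1 mice, neuron and myelin lists overlap, and the thalamic and hippocampal lists lie further left.

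Reactive astrocyte genes split. Of 21, 14 had a positive interaction and 4 passed with the block (19.0%, against 1.64% of all genes), all higher. The mean lesion effects of the pairs overlapped (2.13 to 2.52 in wild type and 2.48 to 2.71 in DKK1 mice). Aspg, an asparaginase and a marker of reactive astrocytes, held 6.64, 4.92 and 7.22 CPM in wild-type contralateral and 44.9, 42.7 and 38.0 CPM in wild-type ipsilateral libraries. In DKK1 mice it held 7.89, 12.1 and 9.07 CPM contralateral and 144, 210 and 229 CPM ipsilateral. The ipsilateral groups were far apart, and wild-type number 1 did not stand out for this gene. Its interaction was 1.58 ± 0.20 with the block (edgeR adjusted p = 0.0104) and 1.58 ± 0.29 without it (edgeR adjusted p = 0.306). The copper oxidase gene Cp (0.70 ± 0.08), the metal reductase gene Steap4 (1.55 ± 0.32) and the filament gene Vim (0.51 ± 0.10) were the others. Without DKK1 pair 2, 0 of the list passed. Gjb2, connexin 26, a gap junction protein, had 1.29 ± 0.16 with the block. General astrocyte genes gave a median of 0.02 over 14 (−0.04 to 0.04 over single libraries left out), with 0 calls by edgeR in either fit, 1 by DESeq2 with the block, and 0 at an unadjusted p under 0.05 without it.

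Scar and vessel genes added few calls. Of 22 fibroblast and scar matrix genes 18 had a positive interaction (median 0.67), and 2 passed with the block. The median was 0.34 without wild-type contralateral 1, 0.43 with wild-type ipsilateral 3 left out and 1.03 with wild-type ipsilateral 1 left out. Thbs1, a matrix protein that holds and activates TGF-beta, held 52.3, 41.4 and 38.3 CPM in wild-type ipsilateral and 71.0, 156 and 87.0 CPM in DKK1 ipsilateral libraries, with an interaction of 1.84 ± 0.26. The collagen crosslinking enzyme gene Lox had 1.45 ± 0.26. Both calls were lost without wild-type pair 2, DKK1 pair 2 or DKK1 pair 3, and that of Lox also without wild-type pair 3. All 20 brain endothelial genes had a positive interaction (median 0.25), and 16 had one (median 0.19) without wild-type contralateral 1. With the block 2 passed, the junction protein Pecam1 (0.52 ± 0.11) and the clotting factor carrier Vwf (0.52 ± 0.10). Of the 6 pairs, leaving out any but wild-type 1 and DKK1 1 ended both calls. Of 15 mural cell genes the growth factor receptor Pdgfrb (0.48 ± 0.10) and the peptidase Anpep (1.35 ± 0.21), which macrophages and fibroblasts also express, passed, and the same 4 pairs left out ended both calls. Of 20 genes of lipid handling, Abca1, which exports cholesterol, passed with 0.71 ± 0.10 (lost without DKK1 pair 2 or 3). In that list 11 higher and 1 lower had an unadjusted p under 0.05 without the block (6.98% and 2.61% of all genes). Abca1 held 255.3 to 434.1 CPM in wild-type ipsilateral and 443.1 to 530.3 CPM in DKK1 ipsilateral libraries, which did not overlap.

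Of the calls outside the lists, some came from 1 locus: 7 Ugt1a genes, detoxifying glucuronosyltransferases whose transcripts share exons, passed with the block and cannot be counted as separate findings.

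Each Wnt list held 1 interaction call with the block, too few to set it apart from all genes. Of 21 Wnt/beta-catenin target genes 1 passed with the block (4.76%, against 1.64% of all genes) and 0 without. Among the 21, 15 were positive, and the median was 0.11 (0.03 to 0.16 over single libraries left out). The mean lesion effects were 0.40, 0.35 and 0.36 in wild-type pairs and 0.60, 0.56 and 0.57 in DKK1 pairs, which did not overlap. The gene that passed was Cldn5, claudin 5, the main tight junction protein of brain endothelium, whose expression beta-catenin is known to maintain. Cldn5 held 54.9, 58.5 and 54.0 CPM in wild-type contralateral, 60.2, 62.1 and 66.7 in wild-type ipsilateral, 45.4, 51.8 and 49.4 in DKK1 contralateral and 66.1, 74.6 and 72.9 CPM in DKK1 ipsilateral libraries. It was lower in DKK1 mice on the intact side without overlap, and its interaction was 0.37 ± 0.07 (edgeR adjusted p = 0.0416 with the block, 0.206 without DKK1 pair 2). The call was also lost without wild-type pair 2, DKK1 pair 1 or DKK1 pair 3, and with DESeq2 and the block 0 of the 21 passed. Of 59 Wnt ligands, receptors and regulators 1 passed with the block (1.69%) and 33 were positive (median 0.09, and 0.00 to 0.13 over single libraries left out). The ligand gene Wnt16 passed with the block (2.41 ± 0.45, edgeR adjusted p = 0.0337, lost without wild-type pair 2 or 3 or DKK1 pair 2 or 3), at 0.875 to 3.22 CPM in wild-type ipsilateral and 3.06 to 5.49 CPM in DKK1 ipsilateral libraries. Dkk2, a relative of Dkk1 that can also modulate LRP6, held 3.96 to 5.78 CPM in wild-type ipsilateral and 7.71 to 11.0 CPM in DKK1 ipsilateral libraries and did not pass (1.27 ± 0.30 with the block, edgeR adjusted p = 0.0665). Among 21 genes of the blood-brain barrier 1 passed (4.76%), the transporter gene Slco2b1 (0.52 ± 0.11). The list median was 0.04 (0.04 to 0.14 over single libraries left out). The call of Slco2b1 was lost without wild-type pair 2 or 3 or DKK1 pair 2 or 3.

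Neuron, striatal and myelin lists held 0 interaction calls by edgeR, against 1.64% of all genes with the block and 0.00568% without. At those shares lists of this size would hold few calls, so the absence is not a result about these cells. At an unadjusted p under 0.05 without the block the share of all genes was 9.59%. Of 27 neuron and synapse genes 24 fell in wild type and 27 in DKK1 mice with the lesion, while 0 passed for the interaction by edgeR, limma-voom or DESeq2 in either fit, 0 had an unadjusted p under 0.05 without the block, and the median was −0.06. Striatal (median −0.03, 18 genes) and myelin genes (−0.08, 16 genes) had 0 calls as well, with 0 at an unadjusted p under 0.05. Over single libraries left out these 3 medians ran from −0.14 to −0.01, from −0.16 to 0.13 and from −0.14 to 0.07.

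Among the lower interactions was that of Ntng1, netrin-G1, a membrane protein of axons such as those from the thalamus, which held 28.7, 22.4 and 29.3 CPM in wild-type contralateral and 36.6, 27.9 and 42.0 CPM in wild-type ipsilateral libraries. The DKK1 libraries held 34.7, 38.5 and 38.5 CPM contralateral and 24.5, 22.9 and 23.9 CPM ipsilateral. It rose in wild type (0.40, edgeR adjusted p = 0.0361) and fell in DKK1 mice (−0.65, edgeR adjusted p = 0.00222). Its interaction was −1.04 ± 0.10 with the block (edgeR adjusted p = 0.00208) and −1.05 ± 0.19 without it (edgeR adjusted p = 0.306). Lrrc55, which modulates BK potassium channels, did not change in wild type past the threshold (−0.04) and fell by 0.76 on the log2 scale in DKK1 mice, where the ipsilateral libraries at 33.5, 30.7 and 30.7 CPM were the lowest of all. Its interaction was −0.71 ± 0.10 with the block. Kcnq1ot1, an imprinted non-coding RNA, held 113 to 131 CPM in wild-type contralateral, 121 to 142 in wild-type ipsilateral, 142 to 161 in DKK1 contralateral and 102 to 111 CPM in DKK1 ipsilateral libraries (−0.63 ± 0.09).

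The most negative values were at very low levels. Pou4f1, a factor of habenular and sensory neurons, held 5.01, 0.159 and 3.92 CPM in wild-type ipsilateral libraries and at most 1.43 CPM in each of the other 9 (−4.44 ± 0.89 with the block). Sim1, a factor of hypothalamic neurons (−3.31 ± 0.69), and Irx2 (−3.13 ± 0.63) reached at most 1.79 and 3.81 CPM in any library. Chrnb3, a nicotinic receptor subunit, passed too (−1.66 ± 0.34). Prox1, a factor of dentate granule neurons, held 32.7, 25.7 and 32.3 CPM in wild-type contralateral and 85.7, 46.3 and 64.0 CPM in wild-type ipsilateral libraries. In DKK1 mice it stood at 34.7, 38.9 and 34.5 CPM contralateral and 45.3, 44.5 and 42.0 CPM ipsilateral (−0.80 ± 0.13 with the block). The mean lesion effect of 21 tested thalamic and hypothalamic genes was 1.85, 1.04 and 1.16 in the wild-type pairs against 0.59, −0.55 and 0.63 in the DKK1 pairs, with 1 call (Sim1, lost without any pair other than wild-type 1). That of 12 hippocampal genes was 1.26, 0.94 and 1.08 against 0.70, 0.10 and 0.36, with 1 call (Prox1, lost without DKK1 pair 2 or 3). Choroid plexus genes had a median of −0.60 (−1.12 to −0.31 over single libraries left out) with 0 calls by edgeR in either fit and 0 at an unadjusted p under 0.05, and their pairs overlapped. Of the 30 lower genes 2 are in these region lists, and the part of region content in the others was not tested. The 1 call each was 4.76% of the thalamic and hypothalamic and 8.33% of the hippocampal list, against 0.17% of all genes lower.

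Several of the largest positive values were of genes with high levels in wild-type contralateral 1 and 2. Serpina1b, an antitrypsin gene made by liver cells, held 21.8, 6.33 and 0.971 CPM in wild-type contralateral, 0.935, 0.713 and 0.495 in wild-type ipsilateral, 0.784, 0.615 and 0.872 in DKK1 contralateral and 3.56, 3.34 and 5.85 CPM in DKK1 ipsilateral libraries. Its interaction of 5.90 ± 0.67 with the block thus combines high levels on the intact side of the wild type with a rise in DKK1 mice (2.49, edgeR adjusted p = 0.0327 without the block). Serpina1a, Serpina1d, Serpina3k, the kininogen gene Kng1 and the fibrinogen gene Fgb had interactions of 4.46 to 6.61 with the block and no lesion effect past the threshold in DKK1 mice. In 13 of the higher genes wild-type contralateral 1 was the highest library. Over 20 tested liver genes, a list chosen after values were seen, the median lesion effect was −3.58 in wild type and 0.49 in DKK1 mice, and 10 were called with the block (11 of 19 without wild-type pair 1, 7 of 20 without wild-type pair 2, 18 of 22 without wild-type pair 3, and 7, 0 and 3 of 22 without DKK1 pair 1, 2 and 3). Reads of the near-identical Serpina1 copies are uncertain.

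H2-Q10, a secreted class I molecule of liver, differed from these. It held 4.61, 1.15 and 0.253 CPM in wild-type contralateral, 0.710, 0.594 and 0.381 in wild-type ipsilateral, 1.37, 1.68 and 1.18 in DKK1 contralateral and 9.40, 12.5 and 13.1 CPM in DKK1 ipsilateral libraries. The 3 DKK1 ipsilateral libraries were the highest, and its interaction was 4.66 ± 0.57 with the block (edgeR adjusted p = 0.00951). Apoc2, which activates lipoprotein lipase, and the kininogen Kng2 were also among the 12 largest, but had 1 and 2 counts in all over the DKK1 contralateral libraries, and no fold is given for them. Their levels in DKK1 ipsilateral libraries were 8.54 to 13.3 and 2.78 to 4.44 CPM, and in wild-type ipsilateral libraries 3.84 to 8.37 and 0.594 to 2.77 CPM.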

How the data were processed

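RNA was extracted with a miRNeasy micro kit and mRNA libraries were made with a directional NEBNext kit, per the labels' protocols. The submitters' processing notes name the build mm10 with HOMER 4.11, STAR 2.7.0f and DESeq2, with no role stated. The authors deposited raw counts per gene (25124 genes, 1 RefSeq transcript each) and a table of TPM, which served for 1 alternative on log2(TPM + 1), so low genes are understated there. The TPM table holds the same transcript for 19749 genes.

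Genes were kept by edgeR's filter (minimum count 10), which left 17612. Counts were scaled by TMM and fitted with edgeR 4.0.16 (robust quasi-likelihood, R 4.3.3) in 1 model of 12 libraries. Tests were two-sided with Benjamini-Hochberg adjustment over all genes tested, at 0.05. The SE is the fold change over the root of F. Levels are TMM-scaled CPM, and pair differences use log2 CPM with a prior count of 2. The scripts were tested on simulated data.

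The labels do not tie equal numbers to an animal. In same-numbered libraries the deviations from the group means had correlations of 0.487, 0.310 and 0.297 (wild-type pairs) and 0.276, 0.125 and 0.105 (DKK1 pairs), all over 0.1, so the numbers were taken to pair the samples. DKK1 contralateral 2 correlated more with ipsilateral 3 (0.172). Same-numbered libraries of different genotypes, which cannot share an animal, had correlations of 0.257, −0.062 and 0.096 contralateral. On the ipsilateral side these were −0.0629, 0.111 and 0.0751. The contralateral value for number 1 was thus above those of DKK1 pairs 2 and 3. A value over 0.1 therefore does not separate pairs from other libraries, and the pairing is an assumption. Whether equal numbers mark one animal or a shared handling was not tested. The replicate block has 6 blocks of genotype and number with a lesion effect per genotype. Alternatives were limma 3.58.1 (voom, random block with a consensus correlation of 0.313, pair differences), DESeq2 1.42.0, RLE and upper-quartile scaling, no filter, no robust fit, TPM, and leaving out libraries or pairs. No 2 libraries were duplicates (smallest chi-square 4.07 per degree of freedom).

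The members, lists and comparisons were chosen with earlier results of these data known. Named genes were Dkk1 and the genes of the transgene loci, the 12 largest interactions each way past 0.05 with at least 1 CPM in a group (with and without the block), the 8 of smallest p where fewer than 8 passed, and 2 members of each list by p, leaving out predicted models. Called list members, genes that passed whichever pair was left out, and the liver list were named after their values were seen. A few genes that these rules take are not reported here.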

Additional observations from a re-analysis of the deposited data

Results flagged for a closer look

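The lesion effect of H2-T-ps differed between the genotypes by the interaction test without the block, at 2.63 on the log2 scale (edgeR adjusted p = 0.0148). The pair differences were 2.42, 2.71 and 2.94 in DKK1 mice and −0.21, 0.25 and 0.42 in wild type. They are the values the call was made on and add no support to it. The call of H2-T-ps was kept with the replicate block and lost there without DKK1 pair 2 (edgeR adjusted p = 0.0629). It was also lost with limma on the pair differences (adjusted p = 0.169).

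With the replicate block, 288 genes had a lesion effect that differed between the genotypes. Of these, 233 changed with the lesion in both genotypes, 35 in DKK1 mice only, 17 in wild type only and 3 in neither.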

How the results depend on the processing

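The number of genes with an interaction moved with the model. Against 1 gene without the block, the fixed replicate block gave 288, the replicate block as a random effect (limma-voom) 2, limma-voom 0, DESeq2 65, deposited TPM 9 and limma on pair differences 0, and leaving out wild-type number 1 in both hemispheres gave 264. RLE scaling, upper-quartile scaling, no filter and a fit that was not robust each gave 1. Leaving out 1 library gave 0 to 393, of which 393 was without wild-type ipsilateral 1, 17 without DKK1 ipsilateral 1, 4 without wild-type contralateral 3 and 2 without wild-type contralateral 1. With the block, DESeq2, chosen as a tool after the data were seen, gave 502. Leaving out 1 pair with the block gave 1455 (wild-type 1), 119 (wild-type 2), 136 (wild-type 3), 634 (DKK1 1), 5 (DKK1 2) and 30 genes (DKK1 3). The slope of 1.31 was 1.24 without wild-type number 1, 1.09 to 1.46 over single libraries left out and 1.22 to 1.38 over pairs left out with the block. Genes called for the lesion stayed within 1.5 times of 6546 in wild type and 8819 in DKK1 mice under every alternative, at 4407 and 9450 without wild-type number 1. Of 2450 values of single genes under alternatives, 297 gained a call and 8 lost one, all 8 for H2-T-ps. These were set against the fit without the block, where only H2-T-ps was called, so no other gene could lose a call. The blocked fits with a pair left out are not among the 2450. Of the 288 blocked calls, 5 passed in all 6 of those fits. The interactions of Per1, Sgk1 and Pdk4, not past the threshold, changed sign over single libraries left out, at −0.15 to 0.42, −0.22 to 0.45 and −0.59 to 0.19. No other gene named here reversed. The block lowers the residual degrees of freedom, and 3 pairs per genotype limit every count.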

Other observations

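Several genes moved with the library number in all 4 groups. Per1, a clock gene that glucocorticoids induce, held 112, 266 and 245 CPM in wild-type contralateral, 105, 220 and 208 in wild-type ipsilateral, 131, 201 and 211 in DKK1 contralateral and 119, 198 and 186 CPM in DKK1 ipsilateral libraries. Number 1 was the lowest of each group. The same order held for Sgk1, a kinase gene induced by glucocorticoids, at 59.1 to 95.5 CPM in the 4 number 1 libraries and 147 to 195 CPM in the other 8. Pdk4, which shifts cells from glucose to fat use, stood at 12.97 to 15.94 and 27.07 to 56.21 CPM, and Etnppl, an astrocyte enzyme of lipid metabolism, at 11.2 to 16.4 and 33.3 to 57.4 CPM. Of these, Etnppl had an interaction past the threshold with the block (−0.42 ± 0.09, edgeR adjusted p = 0.0478). The genes were chosen after their values were seen, and whether the numbers mark a shared day or handling is not in the labels.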
